A study of Mus musculus with 6 samples.

Results

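Alpha-defensins are described here in RNA sequencing of ileal epithelial cells from mice in which the enzyme gene Ogt was deleted and from control mice. The 10 genes were taken by Ensembl identifier: Defa3, Defa5, Defa17, Defa20, Defa21, Defa22, Defa23, Defa24, Defa26 and Defa30. They are 10 of the 22274 genes listed and 10 of the 28 rows that the deposited table names as alpha-defensins. Each gene was followed on its own, and their counts were also summed, because these genes are so alike that a read can match several of them.

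Alpha-defensins, called cryptdins in the mouse intestine, are small cationic peptides that disrupt bacterial membranes. Paneth cells at the base of the small intestinal crypts make them as precursors and release them into the crypt lumen from dense granules. In the mouse the protease matrilysin, encoded by Mmp7, cuts the precursor to the active peptide. Paneth cells arise from crypt stem cells under Wnt signalling, and Wnt-responsive factors of the TCF family act on alpha-defensin promoters.

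The Ogt knockout group (3 libraries) came from mice that carried floxed Ogt alleles and Olfm4-CreER, a tamoxifen-inducible recombinase driven from Olfm4, a gene of crypt stem cells in the mouse ileum. The control group (3 libraries) is labelled LoxP, with no driver named, so what the driver does and what loss of Ogt does cannot be told apart. Per the protocol shared by all libraries, mice aged 2 months had tamoxifen daily for 3 days, and tissue was taken on day 10. Ogt encodes O-GlcNAc transferase, which places a sugar on proteins of the nucleus and cytoplasm, and the comparison asks which transcripts differ after its deletion. The labels name no strain, although alpha-defensin gene copies differ between mouse strains, and they do not say whether each library is a different animal. The p-values therefore measure only the spread between these samples, which may be technical.

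Libraries held 14389429 to 18076479 estimated counts, and 3 counts, the limit that a count of 0 allows, correspond to 0.159 to 0.207 CPM, counts scaled to a common library size. Ogt reached 48.5, 43.0 and 36.0 CPM in the Ogt knockout libraries, against 140, 127 and 128 CPM in the control libraries. It fell by 1.63 ± 0.13 on the log2 scale (± SE; edgeR quasi-likelihood, Benjamini-Hochberg adjusted p = 0.00121). Which exons are floxed is not stated in the labels, so transcript from the others may still be counted. Bulk libraries also do not show which cells kept Ogt, and whether the Paneth cells present had lost it was not measured. Of 14005 tested genes, 18.7% passed an adjusted p of 0.05, 9.33% higher and 9.37% lower in Ogt knockout. The deposited table holds estimated counts and FPKM, fragments scaled for transcript length and library size.

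The 10 genes lie on the plus strand of chromosome 8 (GENCODE M21, GRCm38), each with 2 exons. The second exon codes for the mature peptide, and its coding part is printed to show how little separates some members from others. It is given 5′ to 3′ up to and including the stop codon, in lower case, with capitals where a base differs from Defa24 in an alignment or has no partner in it. Defa17 has the same second-exon coding sequence as Defa3.
Defa24: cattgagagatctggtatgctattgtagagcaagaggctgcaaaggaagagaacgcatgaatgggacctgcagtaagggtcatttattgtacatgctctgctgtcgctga
Defa30: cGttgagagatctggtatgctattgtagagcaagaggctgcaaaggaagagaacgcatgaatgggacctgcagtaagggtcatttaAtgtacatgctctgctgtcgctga
Defa23: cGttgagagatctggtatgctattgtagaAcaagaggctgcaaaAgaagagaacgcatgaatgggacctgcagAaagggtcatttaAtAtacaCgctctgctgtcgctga
Defa3: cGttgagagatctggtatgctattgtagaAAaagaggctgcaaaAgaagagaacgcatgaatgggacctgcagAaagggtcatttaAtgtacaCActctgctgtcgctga
Defa26: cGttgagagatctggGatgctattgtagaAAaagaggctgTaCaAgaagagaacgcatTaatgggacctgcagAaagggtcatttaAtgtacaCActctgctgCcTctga
Defa5: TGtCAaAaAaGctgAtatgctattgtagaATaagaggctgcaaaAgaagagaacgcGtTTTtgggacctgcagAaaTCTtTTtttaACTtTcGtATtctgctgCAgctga
Defa20: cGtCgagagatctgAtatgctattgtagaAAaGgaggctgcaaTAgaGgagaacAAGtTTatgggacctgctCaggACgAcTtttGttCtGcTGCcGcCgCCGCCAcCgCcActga
Defa22: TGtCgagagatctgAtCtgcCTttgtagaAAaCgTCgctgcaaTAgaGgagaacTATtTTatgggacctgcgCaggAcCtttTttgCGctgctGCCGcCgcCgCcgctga
Defa21: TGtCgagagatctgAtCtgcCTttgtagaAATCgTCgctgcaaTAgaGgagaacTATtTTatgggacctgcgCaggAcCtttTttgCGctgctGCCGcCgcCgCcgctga

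Over this stretch Defa30 differed from Defa24 at 2 bases (A2G and T87A, counted from the first base printed, Defa24 base first), Defa23 at 7, Defa3 at 8, Defa26 at 14 and Defa5 at 30. Over the whole coding sequence Defa3 and Defa17 were identical at 282 of 282 bases, Defa21 and Defa22 differed at 2 and Defa24 and Defa30 at 4. Genes joined at 88% identity or more fell into Defa3, Defa17, Defa23, Defa24, Defa26 and Defa30, then Defa20, Defa21 and Defa22, and Defa5 alone. The lowest identity within the first of these was 89.4% and within the second 89.9%, while the highest between them was 85.5% and the lowest of all 45 pairs 80.8%.

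How far a read can be placed on a single member follows from how much of a transcript is found in no other gene. Of all 50-base windows in the transcript, 71.9% were found in no other annotated gene for Defa24, 59.8% for Defa26 and 47.6% for Defa30. The share was 27.1% for Defa21 and 25.1% for Defa22, but 8.05% for Defa17, 7.76% for Defa3, 5.25% for Defa23, 0.306% for Defa5 and 0% for Defa20. With 100-base windows Defa24 reached 100%, Defa30 99.7% and Defa26 98.9%, whereas Defa20 stayed at 0.307%. The read length is not given in the sources used here. For 6 of the 10 genes the deposited count was a fraction in all 6 libraries, as happens when shared reads are divided. Defa24 was among these 6, and Defa5, Defa23 and Defa30 had fractions in 5 libraries. With so few windows of their own, Defa20, Defa5, Defa23, Defa3 and Defa17 are uncertain as single genes.

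**Figure D1:**
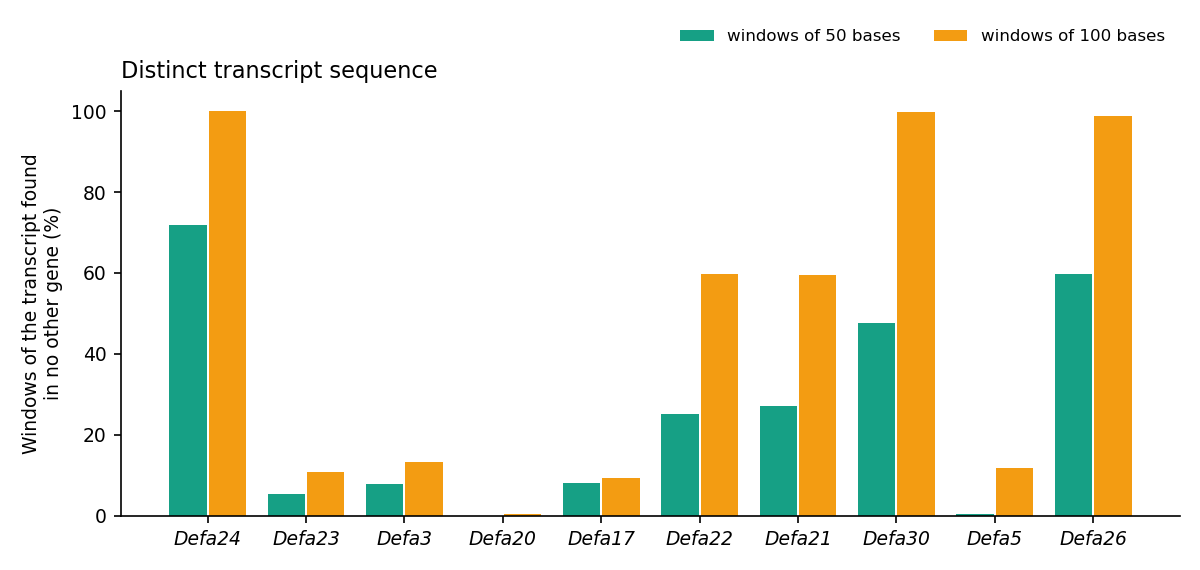
Share of transcript windows of 50 and 100 bases found in no other annotated gene (vertical axis, percent) for each alpha-defensin, ordered by mean FPKM. Defa24, Defa30 and Defa26 are almost wholly distinct at 100 bases, and Defa20 has 0% at 50 bases.

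Promoter sequence was given by RefSeq (GRCm38.p6) for 5 of the 10 genes: Defa20, Defa21, Defa22, Defa23 and Defa30. The 250 bases before the start are printed for Defa21, whose promoter is the same as that of Defa22, and for Defa23 and Defa30. Any part of promoter sequence in the alpha-defensin levels was not tested. Capitals mark TATAAA, the core of a TATA box, and CAAAG, which is CTTTG, the core that TCF/LEF factors bind, on the other strand. Defa21 and Defa22 were identical over the 250 bases, Defa20 was 98.0% identical to both and Defa23 78.0%. Defa30 was 60.4% to 70.8% identical to the others, but bases without a partner count as differences. Its window is shifted, with TATAAA 61 bases before the start against 31 or 33 in the others. These percentages therefore do not rank Defa30 as the most different, since Defa23 matched Defa30 at 199 bases and Defa21 at 198. The sequences below are chr8:21025295-21025544 for Defa21, chr8:21054790-21055039 for Defa23 and chr8:21134400-21134649 for Defa30, all on the plus strand.
Defa21: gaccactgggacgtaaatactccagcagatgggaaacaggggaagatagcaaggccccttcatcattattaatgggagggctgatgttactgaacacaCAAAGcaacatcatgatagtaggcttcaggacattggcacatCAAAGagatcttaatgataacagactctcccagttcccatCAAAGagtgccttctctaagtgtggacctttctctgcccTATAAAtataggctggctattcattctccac
Defa23: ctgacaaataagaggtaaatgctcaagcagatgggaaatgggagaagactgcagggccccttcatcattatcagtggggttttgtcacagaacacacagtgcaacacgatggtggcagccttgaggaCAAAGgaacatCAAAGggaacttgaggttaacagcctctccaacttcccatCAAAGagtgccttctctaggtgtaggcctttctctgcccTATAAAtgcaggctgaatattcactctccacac
Defa30: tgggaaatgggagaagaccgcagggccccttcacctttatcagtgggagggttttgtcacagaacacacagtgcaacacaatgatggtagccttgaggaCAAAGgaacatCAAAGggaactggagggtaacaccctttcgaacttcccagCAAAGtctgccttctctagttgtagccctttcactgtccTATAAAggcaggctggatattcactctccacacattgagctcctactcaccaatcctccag

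Each of the 5 promoters held 1 TATAAA, which began 31 bases before the start in Defa20, Defa21 and Defa22, 33 bases before it in Defa23 and 61 bases before it in Defa30. TATAAA, searched on both strands, was present in 12.4% of 32851 promoters of this length. Each of the 5 also held 3 matches to CTTTG, all on the minus strand, where 3.94% of all promoters held at least 3 and 48.6% held any. The longer CTTTGAT, whose matches overlap those of CTTTG, occurred at 2 places in Defa20, Defa21, Defa22 and Defa23 and at 1 in Defa30, and 3.21% of all promoters held it. A match to these letters is a description of the sequence and does not show a bound site.

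No alpha-defensin passed the test between Ogt knockout and control. Of the 10 genes, all of which had enough counts to be tested, 0 were called higher and 0 lower by the edgeR quasi-likelihood test, beside 18.7% of all tested genes, and 0 had an unadjusted p under 0.05. DESeq2, limma voom and limma on log2 FPKM also called 0. Log2 fold changes lay between -0.64 for Defa30 and 0.43 for Defa24, with a median of -0.11 beside -0.05 over all tested genes, 4 positive and 6 negative. The 2 groups of libraries overlapped for all 10 genes, whereas 39.8% of all tested genes had groups that did not overlap. The intervals are wide: the 95% lower bounds ran from -3.05 to -1.86 and the upper bounds from 1.65 to 2.75, so differences of several-fold in either direction lie within them.

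Levels per transcript length set Defa24 highest and Defa26 lowest in all 6 libraries. Mean FPKM over the 6 libraries was 853 for Defa24, 460 for Defa23, 373 for Defa3, 281 for Defa20, 253 for Defa17, 218 for Defa22, 199 for Defa21, 173 for Defa30, 81.2 for Defa5 and 13.3 for Defa26. The spread over libraries was close to the level itself. Defa24 averaged 1009 ± 730 FPKM in Ogt knockout and 698 ± 539 FPKM in control, and Defa23, the next, 503 ± 444 and 418 ± 331 FPKM (SD, n = 3 each). Means ± 1 SD of neighbours in this order overlapped in both groups, except for Defa5 and Defa26 in Ogt knockout, at 93.7 ± 68.0 and 12.9 ± 8.70 FPKM.

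Defa24, the most abundant and among the most distinct in sequence, had 764, 296 and 173 CPM in Ogt knockout libraries 1 to 3, against 378, 40.3 and 499 CPM in control libraries 1 to 3. Ogt knockout 1 was highest and control 2 lowest, and between them the other control libraries lay above the other Ogt knockout libraries. Its log2 fold change was 0.43 ± 0.94 (± SE; edgeR quasi-likelihood, Benjamini-Hochberg adjusted p = 0.784).

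Defa30, its nearest relative, had 93.4, 54.5 and 16.9 CPM in Ogt knockout, against 78.8, 10.6 and 166 CPM in control. Here control 3 was highest, and control 2 was again lowest. The log2 fold change was -0.64 ± 0.99 (edgeR quasi-likelihood, Benjamini-Hochberg adjusted p = 0.691), the lowest adjusted p of the 10 genes.

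Defa23 showed the widest range of all members, 25.8-fold from the lowest to the highest library. It had 415, 98.3 and 91.5 CPM in Ogt knockout, against 243, 16.1 and 279 CPM in control, and a log2 fold change of 0.17 ± 1.06. Defa3 had 341, 99.9 and 57.1 CPM in Ogt knockout, against 170, 17.0 and 239 CPM in control. Defa17, which shares its coding sequence, had 168, 78.8 and 49.1 CPM in Ogt knockout, against 136, 13.9 and 159 CPM in control. Both were highest in Ogt knockout 1 and lowest in control 2, with log2 fold changes of 0.22 ± 1.02 and -0.06 ± 0.87. Defa5 followed the same order at a lower level, with 64.1, 23.3 and 15.4 CPM in Ogt knockout, against 36.6, 2.97 and 41.3 CPM in control.

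Defa20, Defa21 and Defa22 were highest in control 3 instead. Defa20 had 182, 111 and 36.9 CPM in Ogt knockout, against 110, 23.7 and 261 CPM in control. Defa22 had 135, 94.8 and 28.4 CPM in Ogt knockout, against 93.5, 18.7 and 183 CPM in control. Defa21 had 117, 91.7 and 30.9 CPM in Ogt knockout, against 92.0, 18.3 and 154 CPM in control. Control 2 was lowest for all of them and the groups overlapped, with log2 fold changes of -0.26 ± 0.91 for Defa20, -0.19 ± 0.87 for Defa22 and -0.15 ± 0.80 for Defa21.

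Defa26, the least abundant, was the exception to the low value in control 2. It had 7.95, 4.61 and 1.43 CPM in Ogt knockout, against 4.2004, 1.70 and 10.1 CPM in control, and was lowest in Ogt knockout 3. Over all members, 9 of 10 were lowest in control 2, 5 of 10 were highest in Ogt knockout 1 and 5 of 10 in control 3. The smallest ratio of the highest to the lowest library was 7.09, for Defa26.

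**Figure D2:**
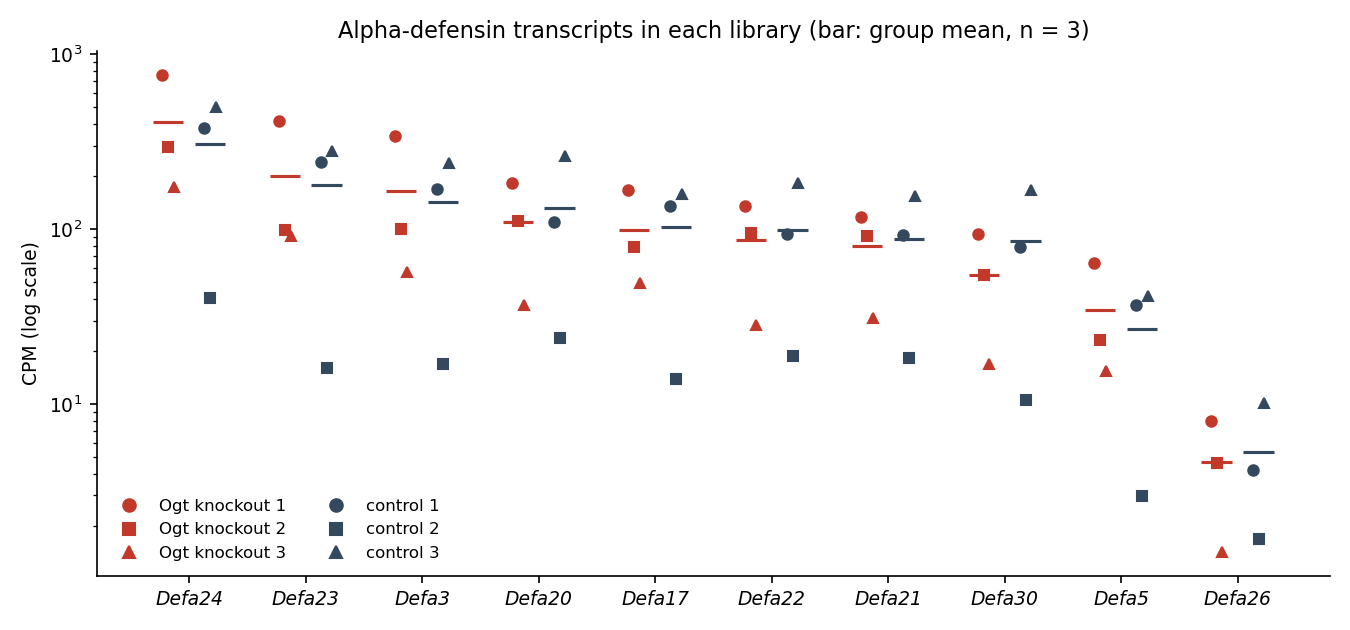
CPM of each alpha-defensin in each library (log scale), Ogt knockout in red to the left of control in dark blue, marker shape giving the library number and bars the group mean (n = 3). Control 2 (dark square) is lowest for 9 of 10 genes and the groups overlap for all 10.

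**Figure D3:**
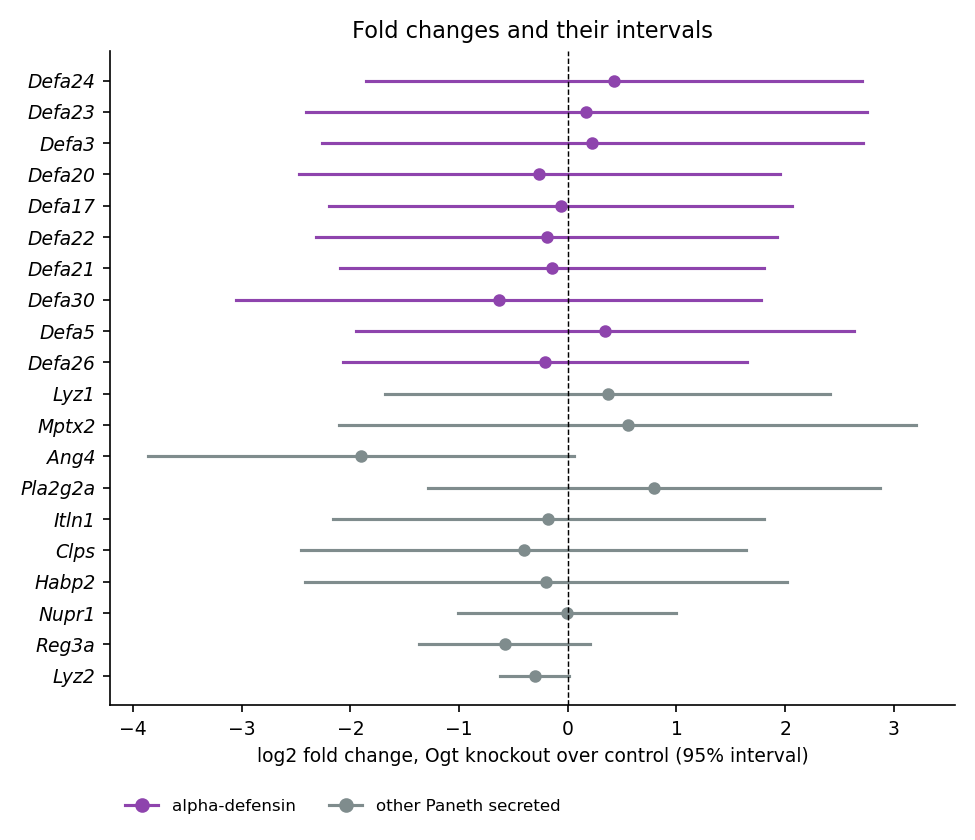
Log2 fold change of Ogt knockout over control with its 95% interval for the 10 alpha-defensins and for the tested Paneth cell genes that encode other secreted proteins, except Mptx1, which had 0 counts in Ogt knockout. Lyz2, shown among the latter, is also a myeloid marker. The intervals of all 10 alpha-defensins span 0, from -0.64 for Defa30 to 0.43 for Defa24 in the estimates.

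The members moved together from library to library, whatever the group. Between 2 members, Pearson's r of log2(CPM + 1) over the 6 libraries ranged from 0.786 (Defa23 and Defa26) to 0.998 with a median of 0.938 over 45 pairs. These values describe 6 libraries in which the genes share reads, depth and cell make-up.

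The summed counts, which do not depend on how shared reads were split among the 10 genes, gave 2289, 952 and 501 CPM in Ogt knockout, against 1342, 163 and 1993 CPM in control. That is 0.230%, 0.1002% and 0.0544% of all counts in Ogt knockout, against 0.131%, 0.0154% and 0.187% in control. Ogt knockout 1 and control 3 were high, control 2 was far below the rest, and the groups overlapped. The mean was 1248 ± 930 CPM in Ogt knockout and 1166 ± 927 CPM in control (SD, n = 3 each), a ratio of 1.07 (log2 ratio 0.10). Without Ogt knockout 1 the log2 ratio was -0.68, without control 2 it was -0.42, and without control 3 it was 0.73. In bulk libraries, a smaller share of Paneth cells and less alpha-defensin RNA per Paneth cell cannot be told apart. The libraries also held cells outside the epithelium in varying amounts. Smooth muscle markers summed to 632 to 1034 CPM in Ogt knockout and to 742 to 1692 CPM in control. Their part in the alpha-defensin values was not tested.

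The spread of the sum within each group was large. Some other Paneth cell genes shared it in control, and Mptx2 shared it in Ogt knockout. The SD of the log2 sum was 1.10 in Ogt knockout and 1.94 in control, where the median gene had 0.152 and 0.185. Of 12285 genes compared, which include the alpha-defensins, 0.749% had a larger SD in Ogt knockout and 0.163% in control. The genes above the sum include some of its own members, such as Defa23, at 1.22 in Ogt knockout and 2.27 in control. The SD of log2(CPM + 1) was 0.674 in Ogt knockout and 1.93 in control for Lyz1, 0.730 in Ogt knockout and 1.82 in control for Itln1, and 0.919 in Ogt knockout and 1.82 in control for Mmp7. For Mptx2 the SD was 1.30 in Ogt knockout, above that of the sum, and 1.57 in control, below it. For the sum, the lowest and highest libraries were 4.57-fold apart within Ogt knockout and 12.2-fold apart within control.

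The make-up of the sum varied less than its size. Defa24 contributed 33.4%, 31.1% and 34.6% of the summed counts in Ogt knockout, against 28.2%, 24.7% and 25.05% in control. The groups did not overlap, and the mean was 33.0 ± 1.80% in Ogt knockout and 26.0 ± 1.91% in control (SD, n = 3 each), a difference of 7.04 percentage points. An exact two-sided permutation test gave p = 0.1, the smallest that 3 against 3 libraries allow, and 0.5 after Benjamini-Hochberg adjustment over the 10 shares, so this exact test cannot reach 0.05 here. Leaving out each library in turn, the difference stayed between 6.25 and 8.14 points.

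Defa30 took the opposite course at a lower share, with 4.08%, 5.72% and 3.38% in Ogt knockout, against 5.87%, 6.47% and 8.34% in control. The groups did not overlap here either (difference -2.50 points; exact permutation p = 0.1, adjusted 0.5). Both differences kept the groups apart when shares were taken of summed FPKM or of all 28 listed alpha-defensin rows, and both were picked out after the values had been seen. Defa24 and Defa30 differ at 4 of 282 coding bases, and how reads shared between them were divided is not known. Shares of the same sum also depend on each other. Any part of either in these differences was not tested. The other 8 members had shares that overlapped between groups. Defa20, Defa21 and Defa22 together made up 19.0%, 31.2% and 19.2% in Ogt knockout, against 22.0%, 37.2% and 30.0% in control, highest in library 2 of each group.

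**Figure D4:**
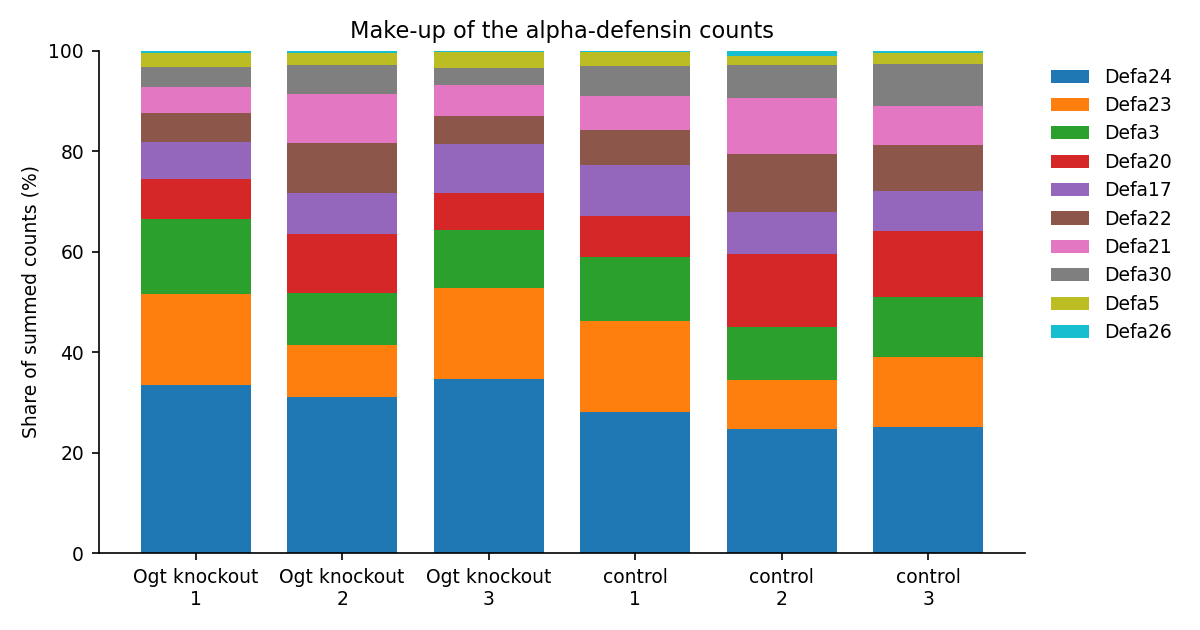
Share of the summed estimated counts contributed by each alpha-defensin (vertical axis, percent) in each library, Ogt knockout on the left and control on the right. Defa24, at the base, takes 31.1% to 34.6% in Ogt knockout and 24.7% to 28.2% in control.

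The other rows named as alpha-defensins gave the same outcome. Of the 28 rows, 24 were tested and 0 were called in either direction, beside 18.7% of all tested genes. All 28 together gave a mean of 1873 ± 1302 CPM in Ogt knockout and 1840 ± 1482 CPM in control (SD, n = 3 each). The 10 members made up 60.9% to 69.3% of this sum in Ogt knockout and 61.3% to 65.7% in control. Among the others, Defa37 was listed at 0 in Ogt knockout 1, Ogt knockout 3 and control 1 but had 30.1 CPM in control 3, and it shares every 50-base window with another gene.

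Alpha-defensins were then set beside the other secreted products of Paneth cells. Of 14 such genes, 11 were tested. In Ogt knockout 0 were higher and 1, Mptx1, was lower, beside 9.33% higher and 9.37% lower of all tested genes. The median log2 fold change of the 11 was -0.20. The tested genes include Lyz2, which is also among the myeloid markers and did not follow the alpha-defensin sum (Pearson's r = -0.319). Mptx1, a mucosal pentraxin, had 0 counts in the 3 Ogt knockout libraries together and 66 counts in the 3 control libraries (edgeR quasi-likelihood, Benjamini-Hochberg adjusted p = 0.00818). It was scarce in control too, at 0.852, 1.03 and 2.06 CPM, and met the count filter only through that group. Its call is therefore weak support for a difference. Lyz1, the Paneth cell lysozyme, had 1863, 801 and 862 CPM in Ogt knockout, against 1553, 128 and 1047 CPM in control. Like the alpha-defensin sum it was highest in Ogt knockout 1 and lowest in control 2 (log2 fold change 0.37 ± 0.84).

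Ang4, an antimicrobial ribonuclease, had 19.4, 7.39 and 8.57 CPM in Ogt knockout, against 28.7, 11.8 and 90.8 CPM in control. Its log2 fold change was -1.90 ± 0.80 (edgeR quasi-likelihood, Benjamini-Hochberg adjusted p = 0.156), so it did not pass the test either. The ratio of summed alpha-defensin counts to Ang4 counts was 118, 129 and 58.5 in Ogt knockout, against 46.7, 13.8 and 21.9 in control. These groups did not overlap (log2 ratio of the means 1.89; exact two-sided permutation p = 0.1, the smallest possible, and 0.45 adjusted over 9 such ratios).

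Clps, which encodes colipase and is a marker of mouse Paneth cells, gave ratios of 352, 306 and 327 in Ogt knockout, against 251, 224 and 234 in control, also without overlap (exact permutation p = 0.1, adjusted 0.45). Clps itself was scarce, with 179 counts over the Ogt knockout libraries together and 245 over the control libraries. Its lowest levels were 1.53 CPM in Ogt knockout 3 and 0.728 CPM in control 2. Whether the separation of these ratios exceeds counting error was not tested. The ratios to Lyz1, Itln1, Mmp7, Mptx2, Pla2g2a, Habp2 and Nupr1 overlapped between groups. For Lyz1 they were 1.23, 1.19 and 0.581 in Ogt knockout, against 0.864, 1.27 and 1.90 in control.

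Genes that process alpha-defensins or handle Paneth granules were tested in full, 18 of 18, and 3 were higher and 1 lower, a share near the 18.7% called among all tested genes, with a median log2 fold change of 0.08. Mmp7, whose product activates mouse alpha-defensin precursors, had 46.1, 14.2 and 15.1 CPM in Ogt knockout, against 48.5, 3.64 and 31.1 CPM in control, lowest in control 2 (log2 fold change -0.15 ± 0.90, adjusted p = 0.925). Atg16l1, an autophagy gene needed for normal Paneth granules, averaged 31.3 CPM in Ogt knockout and 21.01 CPM in control, and its log2 fold change was 0.58 ± 0.11 (edgeR quasi-likelihood, adjusted p = 0.0128). Hspa5 and Pdia4, which help proteins fold in the endoplasmic reticulum, rose by 0.76 ± 0.19 and 0.55 ± 0.13 on the log2 scale. Irgm1, an immunity-related GTPase, fell by 0.72 ± 0.12. None of these 4 genes is particular to Paneth cells, and their part in the alpha-defensin levels was not tested. Without Ogt knockout 1, Ogt knockout 2 or control 3 the count of called genes was 2, and without control 1 it was 8.

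Lineage factors and niche signals of Paneth cells were called in 4 of 21 tested genes, a share close to the 18.7% of all tested genes. By direction 0 were higher and 4 lower, beside 9.33% higher and 9.37% lower of all tested genes. The median log2 fold change of the list was -0.27. Fzd5, a Wnt receptor needed for Paneth cell maturation in mice, had 126, 113 and 104 CPM in Ogt knockout, against 187, 151 and 150 CPM in control (log2 fold change -0.51 ± 0.13, edgeR quasi-likelihood adjusted p = 0.0307). The receptor gene Erbb3 fell by 0.76 ± 0.16, the surface marker Cd24a by 0.74 ± 0.16 and the growth factor gene Tgfa by 0.72 ± 0.18 on the log2 scale. Without Ogt knockout 2 none of the 21 genes was called, and without Ogt knockout 3 or control 3 the count was 1.

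Antimicrobial genes expressed more widely in the epithelium were called in 4 of 14 tested, 1 higher and 3 lower, beside 9.33% higher and 9.37% lower of all tested genes, with a median log2 fold change of -0.09. Lcn2, a siderophore-binding protein gene, was higher at 4.01, 1.39 and 2.12 CPM in Ogt knockout, against 0.304, 0.667 and 0.706 CPM in control. Duox2, an oxidase gene, fell by 2.04 ± 0.36 on the log2 scale, Zg16, a goblet cell lectin gene, by 1.40 ± 0.32 and Sprr2a1 by 0.83 ± 0.19. Reg3b, a lectin gene of enterocytes, had 8017, 4284 and 5952 CPM in Ogt knockout, against 2309, 7318 and 2227 CPM in control. It was high in control 2, where the alpha-defensins were low, but highest in Ogt knockout 1, where their sum was also highest. Leaving out 1 library gave 0 to 4 calls in this list, with 0 without Ogt knockout 3 and 2 without Ogt knockout 1 or control 3.

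Markers of other cells were read in the same libraries. The stem cell gene Olfm4, the most abundant of its list, had 107, 45.7 and 199 CPM in Ogt knockout, against 115, 20.4 and 115 CPM in control. It and Smoc2 were lowest in control 2, but Lgr5, Ascl2 and Axin2 were not. The enterocyte peptidase gene Anpep had 7163, 6360 and 5247 CPM in Ogt knockout, against 4617, 12113 and 10867 CPM in control. It, Apoa1 and Fabp6 were highest in control 2, but Fabp2 and Slc10a2 were highest in control 3, and Fabp1 and Alpi in control 1. The 5 stem cell markers summed to 186, 124 and 280 CPM in Ogt knockout, against 200, 95.4 and 222 CPM in control, with 0 of 5 called. The 7 enterocyte markers summed to 18157, 18977 and 15403 CPM in Ogt knockout, against 19026, 28831 and 26436 CPM in control. Of them, 4 of 7 were lower, beside 9.37% of all tested genes. The part of these differences in the alpha-defensin values was not tested.

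All 5 tuft cell markers were lower, with Dclk1 at 5.39, 7.78 and 5.13 CPM in Ogt knockout, against 28.6, 28.0 and 27.5 CPM in control. Of 5 enteroendocrine markers 2 were higher and of 8 goblet cell markers 2 were lower, beside 9.33% higher and 9.37% lower of all tested genes. Among T cell, B cell, myeloid, smooth muscle, pancreatic acinar and red blood cell markers 0 were called. Neutrophils, which make alpha-defensins in humans but not in mice, left 0.111 to 0.899 CPM over 4 markers in Ogt knockout and 0 to 1.46 CPM in control. The B cell gene Cd79a stood at 5.25 CPM in Ogt knockout 1 and at 34.9 to 40.6 CPM in the other libraries. Ms4a1 was likewise low there, at 1.73 CPM against 29.9 to 39.4 CPM. Jchain, the most abundant of the B cell markers, was not, with 774 CPM in Ogt knockout 1 and its lowest value, 340 CPM, in control 1.

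**Figure D5:**
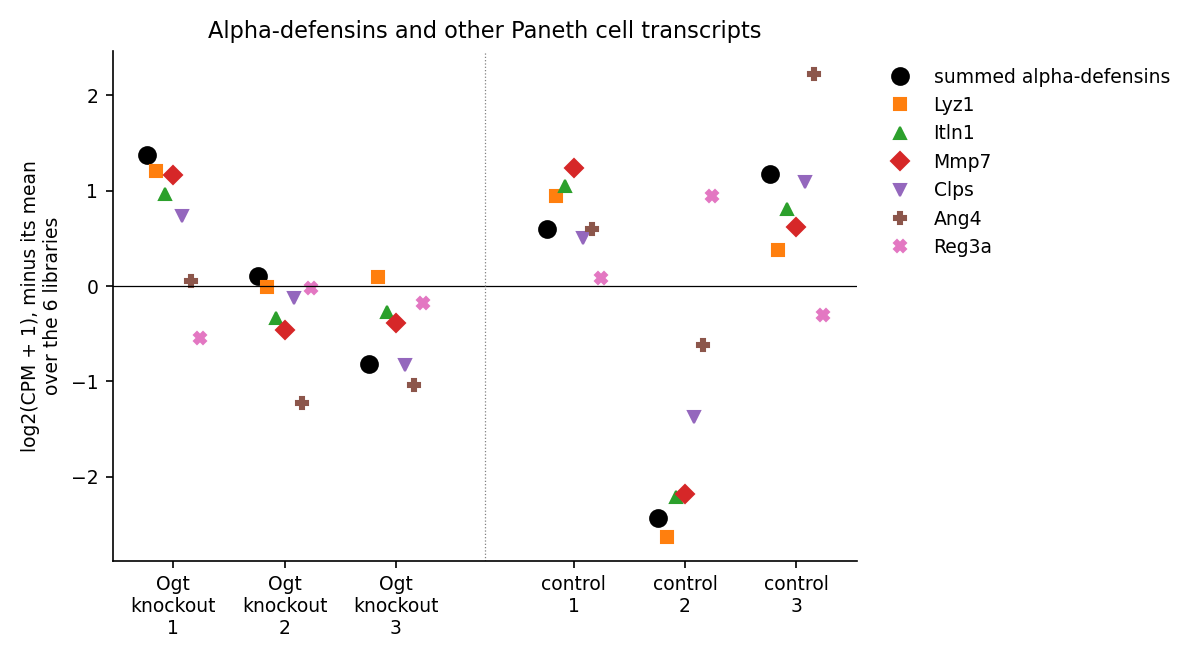
Log2(CPM + 1) of the summed alpha-defensins and of 6 other genes in each library, each minus its mean over the 6 libraries, with Ogt knockout left of control. The alpha-defensins, Lyz1, Itln1, Mmp7 and Clps fall together in control 2, where Reg3a is highest, and Ang4 is highest in control 3.

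Genes outside the family were ranked by Pearson's r of log2(CPM + 1) with the summed alpha-defensins over the 6 libraries, among 11965 named genes whose log2 CPM averaged 1 or more. The 8 most alike were Zadh2 (0.992), Pfas (0.987), Fhdc1 (0.982), Vps37b (0.978), Crcp (0.976), P2rx4 (0.971), St7 (0.971) and Dennd6b (0.968). Their own log2 levels spanned 0.34 to 0.91 between the lowest and highest library, where the sum spanned 3.801. Of the Paneth cell genes, Clps ranked 9 (r = 0.966), Itln1 12 (0.951), Mptx2 13 (0.946), Habp2 15 (0.943), Pla2g2a 22 (0.921) and Lyz1 25 (0.916). Ang4 ranked 878 (0.572), and Reg3a, a lectin gene of the Reg3 family, had r = -0.874. These values describe 6 libraries, which share their depth and cell make-up over all genes.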

How the data were processed

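Per the labels' protocols, Trizol RNA went into the NEBNext Ultra RNA kit, which keeps no strand information. The submitters' processing notes name GRCm39 and mm39. Not given in the sources used here were the aligner, counter, annotation and read length. The authors deposited estimated counts (expected counts) and FPKM per gene and library, per the file headers; lengths behind FPKM are not stated. Between 7.68% and 8.09% of counts were not whole within 0.001.

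Ensembl IDs were named through GENCODE M21 (22219 genes) or the deposited table (55), because deposited symbols merge similar genes: the IDs of Defa17, Defa22 and Defa30 carry the symbols Defa3, Defa21 and Defa24. Columns of per-sample values not used: 0. No pair of libraries agreed within sampling noise.

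Counts were rounded, filtered with filterByExpr (minimum count 10, total 15), scaled by TMM factors and tested with edgeR 4.0.16 quasi-likelihood (R 4.3.3), Benjamini-Hochberg adjusted over 14005 genes, threshold 0.05. Shares and ratios were compared by exact two-sided permutation tests over libraries. Sequence came from GENCODE M21 and RefSeq, aligned with Biopython 1.88. Alternatives were other scalings, DESeq2 1.42.0, limma 3.58.1 (voom, and log2 FPKM with pseudocounts 0.1, 0.01 and 1), other filters, a replicate block and each library left out. Members, lists and tests were chosen with earlier results of these data known.

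Genes named are the members, Ogt, other alpha-defensin rows, per Paneth or antimicrobial list the most abundant gene and those with the 3 smallest adjusted p, per other list the most abundant, and the 8 genes most like the sum; of these, several are not described. Further genes named (Fzd5, Lcn2, Mmp7, Itln1, Clps, Mptx2, Habp2, Pla2g2a, Nupr1, Reg3a, Cd79a, Ms4a1, Apoa1, Fabp1, Fabp2, Fabp6, Slc10a2, Alpi, Smoc2, Lgr5, Ascl2, Axin2) were chosen after their values were seen.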

Additional observations from a re-analysis of the deposited data

How the results depend on the processing

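Under 18 alternatives 0 of the 10 genes passed the threshold in any, with adjusted p between 0.362 and 0.994. Of 180 fold changes 138 kept their direction and 42 reversed, 21 of them among the 60 with 1 library left out. Log2 fold changes that turned positive were, for Defa17, 0.044 with library size alone, 0.37 with voom, 0.32 with the replicate block, and 0.51, 0.51 and 0.50 with FPKM pseudocounts 0.1, 0.01 and 1; in the same order without library size, for Defa20, 0.039, 0.18, 0.18, 0.18 and 0.17; for Defa21, 0.10, 0.14, 0.25, 0.25 and 0.24; and for Defa22, 0.050, 0.15, 0.20, 0.20 and 0.19. The causes were not tested.

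With 1 library left out, log2 fold changes ranged from -0.86 to 0.84 for Defa3, -0.48 to 0.80 for Defa5, -0.69 to 0.41 for Defa17, -0.84 to 0.73 for Defa20, -0.60 to 0.55 for Defa21, -0.68 to 0.63 for Defa22, -0.92 to 0.65 for Defa23, -0.38 to 0.99 for Defa24, -0.83 to 0.67 for Defa26 and -1.26 to 0.31 for Defa30. The log2 ratio of sums ranged from -0.68 to 0.73, and that per Ang4 count from 1.57 to 2.51. Calls among all genes, 2619 in all 6 libraries, numbered 1654, 1134 and 1009 without Ogt knockout 1, 2 and 3, and 3304, 1683 and 1198 without control 1, 2 and 3. Calls ranged from 2 to 8 in the processing list, 0 to 5 for lineage factors, 0 to 4 for antimicrobial genes, 0 to 5 for goblet (0 without Ogt knockout 1 or 3, 5 without control 1), 1 to 2 for enteroendocrine and 0 to 2 for smooth muscle markers, the 2 without control 1.

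Library size alone moved the median of all genes to 0.09 and the calls to 2045 higher and 859 lower, and log2(FPKM + 0.1) gave 1906 and 724, beside 1307 and 1312. The sum's log2 ratio was 0.20 with library size alone and 0.44 from mean log2 values. Same-numbered libraries correlated at 0.308, 0.289 and 0.0998, where every pair had to exceed 0.1, so the numbers were not taken as pairs, although each library matched its own number best; the replicate block called 3402 genes and 0 alpha-defensins. The share and Ang4 ratio and their alternatives were added after seeing the data. With 3 libraries a group and a within-group log2 SD of 1.10 to 1.94 for the sum, small changes were not detectable. Larger changes were not excluded either. The intervals of the members reached as low as -3.05 and as high as 2.75 on the log2 scale, so several-fold differences lay within them.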

Other observations

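Of the alpha-defensin rows outside the 10 genes, 3 are given here, chosen after their values were seen. Gm7861 had 123, 110 and 44.6 CPM in Ogt knockout, against 149, 19.6 and 317 CPM in control. Defa35 had 94.5, 5.17 and 21.2 CPM in Ogt knockout, against 41.0, 0.546 and 3.47 CPM in control. The first was highest in control 3 and the second in Ogt knockout 1, and neither passed the edgeR quasi-likelihood test (adjusted p = 0.580 for both). Gm7849, which shares every 50-base window with another gene, was listed at 0 in Ogt knockout 3, control 1 and control 2 and reached 31.0 CPM in Ogt knockout 1.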
